A study of Homo sapiens with 6 samples.

Results

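N6-methyladenosine (m6A) peaks were described in the genes of 4 golgins, GOLGA3, GOLGA2, GOLGA4 and GOLGB1, and in ANKLE2, the gene next to GOLGA3. A peak was counted for a gene when it lay on the gene's strand and its centre fell inside the gene's window in hg19. The windows were chr12:133345490-133405444 (minus strand) for GOLGA3, chr12:133302250-133338474 (minus) for ANKLE2, chr9:131018100-131038274 (minus) for GOLGA2, chr3:37284680-37408370 (plus) for GOLGA4 and chr3:121382040-121468602 (minus) for GOLGB1. Overlapping peaks of one strand, from any list, were then joined into regions, with 1 bp of overlap as the minimum. This gave 35 of the 25737 regions of the series, made of 94 peaks. MeRIP 1 gave 32 of its 21286 peaks, MeRIP 2 gave 32 of 19851 and MeRIP 3 gave 30 of 20010. GOLGA3 and ANKLE2 were selected on the peak positions of these same lists, by a long chain of regions that recurs in every repeat, so that chain and the recurrence of its regions are given as a description and were not tested.

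The samples were 6 libraries of wild-type HEK293T, an established line from human embryonic kidney with the SV40 large T antigen, and no treatment is named in the labels. Methylated RNA immunoprecipitation sequencing (MeRIP-seq) pulls down RNA fragments that carry m6A with an antibody and sequences them beside input RNA that was not pulled down. The immunoprecipitated (IP) and input libraries made 3 repeats, MeRIP 1, MeRIP 2 and MeRIP 3, and each repeat has a single peak list. All 3 lists come from the same unperturbed line, so the only comparison is between repeats, and no separate cultures are named for them.

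Golgins are long coiled-coil proteins on the cytoplasmic face of the Golgi apparatus, where they catch transport vesicles and hold the membrane stacks together. Each is found at its own part of the Golgi: GOLGA2 (GM130) at the entry side, GOLGB1 (giantin) at the rims of the cisternae and GOLGA4 (golgin-245) at the exit side. GOLGA3 (golgin-160) takes part in Golgi structure and in bringing selected membrane proteins to the cell surface. ANKLE2 (LEM4) is not a golgin but a protein of the endoplasmic reticulum and nuclear envelope that helps the envelope to form again after mitosis, by acting on the phosphorylation of the chromatin-binding protein BANF1. m6A is laid on mRNA mostly by METTL3 with METTL14 and is known to be frequent in long internal exons and near stop codons. Exon and stop codon positions in hg19 were not used here, so the regions below are placed by their distance from the 5′ end of the window.

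The number given for each peak is the authors' own score. It ran from 50 up to 3233.06, with many peaks at exactly 3100, here called the ceiling. These values have the form that MACS gives its scores, the log10 of a p-value multiplied by -10, which no file header states. If they are such scores, they can grow with coverage and width as well as with methylation. A ratio of scores is not a fold of methylation.

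GOLGA3 had the most regions of the 5 genes. Its window of 59.96 kb held 16 peaks in MeRIP 1, 17 in MeRIP 2 and again 16 in MeRIP 3. They formed 18 regions, of which 15 were found in every list, 1 in 2 of the lists and 2 in a single list. ANKLE2 had 5 regions, 4 of them in all 3 lists. GOLGB1 had 7 regions with 4 in all 3 lists, GOLGA4 had 4 with 3 in all 3 lists, and GOLGA2 had a single region, found in all 3 lists. Over the 5 genes 27 of 35 regions (77.1%) were in all 3 lists. Among all regions of the series the share was 59.3%. Since recurrence entered the choice of GOLGA3 and ANKLE2, nothing is read from this difference.

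**Figure D1:**
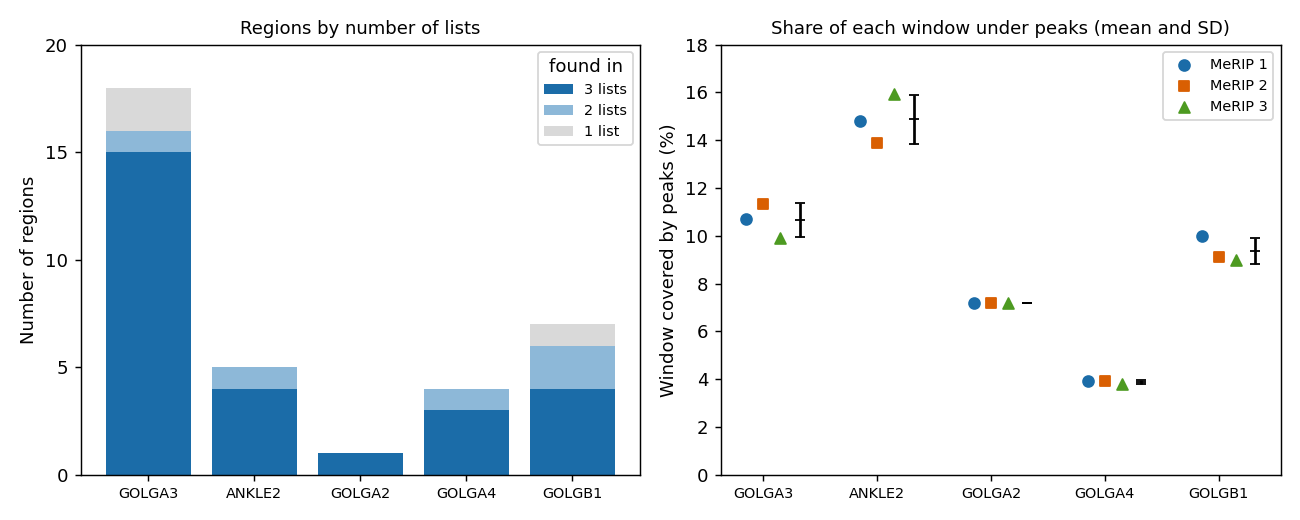
Left, the number of regions in each gene window (bars, from 0), split by the number of lists that hold a peak in the region. Right, the percentage of each window covered by peaks in MeRIP 1, 2 and 3 (points) with the mean and SD over the 3 lists: GOLGA3 has the most regions (18), while ANKLE2 has the largest covered share (14.9%).

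Relative to the length of the window, introns included, GOLGA3 had 2.50 regions of all 3 lists per 10 kb. ANKLE2 had 1.10, GOLGA2 0.496, GOLGB1 0.462 and GOLGA4 0.243 per 10 kb. The share of the window under peaks gave another order. It was 14.9 ± 1.03% for ANKLE2 (SD, n = 3 lists), 10.6 ± 0.710% for GOLGA3, 9.37 ± 0.559% for GOLGB1, 7.20% in every list for GOLGA2 and 3.90 ± 0.0836% for GOLGA4. By list, ANKLE2 had 14.8%, 13.9% and 15.9% of its window covered in MeRIP 1, 2 and 3, above the other 4 genes in each list. GOLGA3 had 10.7%, 11.3% and 9.91%, and GOLGB1 had 10.01%, 9.11% and 8.98%. The values of these last 2 genes overlapped between lists, although GOLGA3 was the higher in each list.

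The genes also differed in how the covered length was divided. In GOLGA3, 13 of the 15 regions of all 3 lists were narrower than 500 bp, and the widest region held 35.0 ± 2.01% of the covered bases (SD, n = 3 lists). In GOLGA4 a single region held 87.9 ± 1.91% of them, and in GOLGB1 a single region held 64.1 ± 3.71%. The 27 member regions of all 3 lists had a median width of 317 bp, against 538 bp over all such regions of the series. GOLGA3, selected for its chain, gave 15 of the 27, with a median of 264 bp. The median was 315 bp in GOLGA4, but 1157.5 bp in GOLGB1, 1453 bp in GOLGA2 and 1453.5 bp in ANKLE2. The lower pooled median therefore does not hold for every gene. Of the 27, 8 were 1000 bp wide or more, which was true of 31.9% of such regions in the series.

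Along GOLGA3 the peaks began close to the 5′ end of the window and ran through to the 3′ end, and they are numbered here from the 5′ end. Region 1 (chr12:133404913-133405439) lay 5 bp inside the 5′ end of the window. It was found in MeRIP 1 alone, with a score of 53.26, close to the lowest score any list holds. Its centre was 268 bp inside the window, which makes it the peak nearest to the limit of the rule. The nearest peak just outside, upstream of the window, had its centre 95263.5 bp away in MeRIP 1 with a score of 401.60. In the other lists it was 12474 bp away in MeRIP 2, with 83.61, and 12473 bp away in MeRIP 3, with 208.64.

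From region 2 on, nearly every region was found 3 times. Region 2 (chr12:133398582-133398898, 317 bp), 6.55 kb from the 5′ end, scored 443 in MeRIP 1, 866 in MeRIP 2 and 960 in MeRIP 3. Region 3 (chr12:133393126-133393398, 273 bp) scored 655, 607 and 951 in the same order. Region 4 (chr12:133389893-133390005, 113 bp) scored 1281, 1137 and 1650. In these 3 regions MeRIP 3 gave the highest score each time, and none reached the ceiling.

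Region 5 (chr12:133384477-133385135) was the first strong region of GOLGA3. It was 659 bp wide and scored 3180, 3100 and 3100, at or above the ceiling in every list. Region 6 (chr12:133383763-133383874, 112 bp) lay 602 bp downstream of it, the shortest gap in the gene. It was listed in MeRIP 2 with a score of 520 and in MeRIP 3 with 829 but not in MeRIP 1, although region 5 was strong in all 3. The lists hold no score under 50 and only part of the peaks called, so absence from a list does not show absence of methylation.

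The next 3 regions, up to the middle of the gene, had moderate scores. Region 7 (chr12:133381302-133381608, 307 bp) scored 1051, 1391 and 2122 in MeRIP 1, 2 and 3. Region 8 (chr12:133378353-133378555, 203 bp) scored 1283, 1176 and 1305. Region 9 (chr12:133374926-133375063, 138 bp) scored 1047, 1094 and 1186. Among GOLGA3 regions found in all 3 lists and always below the ceiling, regions 8 and 9 had the closest scores between repeats. Their highest over lowest ratios were 1.11 and 1.13.

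Most of the regions that reached the ceiling lay in the downstream part of GOLGA3. Of the 9 regions of all 3 lists that began beyond 50% of the window, 6 reached the ceiling in at least 1 list. Of the 6 that began before it, 1 did. Over the 5 genes 11 of the 27 regions of all 3 lists reached the ceiling in at least 1 list, and 27.1% of such regions of the series did. Region 10 (chr12:133372438-133372806, 369 bp) and region 13 (chr12:133362925-133363141, 217 bp) scored 3100 in every list. Region 12 (chr12:133365613-133365876, 264 bp) came close, with 2878 in MeRIP 1, 2991 in MeRIP 2 and 3100 in MeRIP 3. Region 14 (chr12:133360454-133360893, 440 bp) was at 3100 in MeRIP 1 and MeRIP 3 and at 1975 in MeRIP 2. Region 16 (chr12:133354252-133354391), only 140 bp wide, scored 3100, 1925 and 1626.

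Weak regions lay among the strong ones. Region 11 (chr12:133367802-133367879), between regions 10 and 12, was the narrowest of the 5 genes with 78 bp. Its scores in MeRIP 1, 2 and 3 were 403, 139 and 237. Among the GOLGA3 regions found in every list, these were the lowest of MeRIP 2 and of MeRIP 3. A width of 100 bp or less was found in 4.57% of the regions of all 3 lists in the series. Region 15 (chr12:133357384-133357500, 117 bp) was also weak, with 367, 291 and 393. Both lay within 3 kb of a neighbour at the ceiling in at least 1 list, with gaps of 1925 bp from region 11 to region 12 and 2992 bp from region 15 to region 16.

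**Figure D2:**
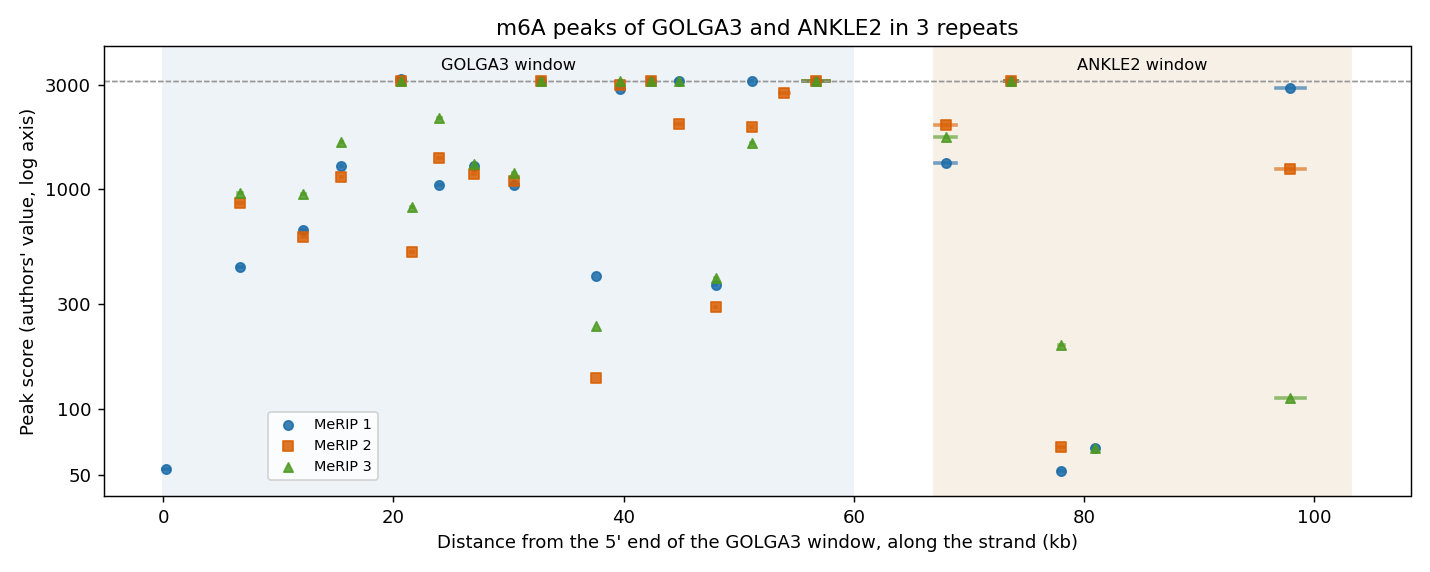
Score of each peak (log axis) against the distance from the 5′ end of the GOLGA3 window along the strand, in kb, through the GOLGA3 window (blue shade) and the ANKLE2 window (tan shade); points are peak centres by repeat, short lines their widths and the dashed line the ceiling of 3100. GOLGA3 regions rise to the ceiling mostly in the downstream part, and the last ANKLE2 region is spread from 112 to 2899.

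The 3′ end of GOLGA3 held the higher scoring of its regions found in a single list, and its widest region. Region 17 (chr12:133351084-133351891, 808 bp) was listed in MeRIP 2 alone, with a score of 2761. Peaks are numbered in the lists, and 2 numbers along GOLGA3 were not listed in MeRIP 1 but none in MeRIP 3. Whether a peak at region 17 was among the unlisted was not tested. Of the peaks of MeRIP 2 with a score of 1000 or more, 1.35% were found in that list alone. Region 17 was flanked on both sides by regions of all 3 lists: region 16 lay 2360 bp upstream and region 18 lay 1203 bp downstream. Region 18 (chr12:133347621-133349880) was 2260 bp wide and scored 3100 in every list. It began 55.6 kb from the 5′ end of the window, 92.7% of the way along.

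ANKLE2 lies next to GOLGA3 on the same strand, downstream of it, with no other gene between them in the RefSeq gene table of GRCh38.p14. The windows are 7015 bp apart in hg19, and the gap between the last GOLGA3 region and the first ANKLE2 region was 9221 bp. Region 1 of ANKLE2 (chr12:133336546-133338399) began 75 bp from the 5′ end of its window. It scored 1314 in MeRIP 1, 1963 in MeRIP 2 and 1728 in MeRIP 3. Region 2 (chr12:133331261-133332313) scored 3100 in every list and was the only ANKLE2 region at the ceiling.

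The next ANKLE2 regions were weak. Region 3 (chr12:133327229-133327634, 406 bp) scored 52.02, 67.16 and 195.94 in MeRIP 1, 2 and 3. Region 4 (chr12:133324418-133324614, 197 bp) scored 66.01 in MeRIP 1 and 66.32 in MeRIP 3 and was not listed in MeRIP 2. Apart from the 195.94 of region 3 in MeRIP 3, these scores were near 50, the lowest that the lists hold.

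Region 5 of ANKLE2 (chr12:133306265-133308796) had the largest spread between repeats of all 27 member regions found in all 3 lists. It was 2532 bp wide with the same edges in every list, and lay 29.7 kb from the 5′ end of the window. Its score was 2899 in MeRIP 1, 1234 in MeRIP 2 and 112 in MeRIP 3, so that the highest was 25.9 times the lowest. Scores over 10-fold apart were found in 1.61% of the 11131 regions of the series that were found in every list and below the ceiling. Of the 16 such member regions, this was the only one. MeRIP 3 was not low throughout ANKLE2: it gave the highest of the 3 scores in region 3 and the middle one in region 1.

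The chain that runs through both genes held 18 regions of all 3 lists, when regions on the same strand less than 10 kb apart were joined. It spanned 71.7 kb, from chr12:133327229 to 133398898, with 15 regions of GOLGA3 and 3 of ANKLE2. Gaps between its regions ran from 1925 to 9221 bp with a median of 3120 bp, and the widest gap was the one between the genes. ANKLE2 region 5, with a gap of 15621 bp from the ANKLE2 region before it, lay outside the chain. The series had 10843 chains, where a region without a neighbour that close also counts as a chain of its own. Of these, 2 held 18 regions or more.

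The 3 chains nearest to it in number of regions held 18, 16 and 16, and are named by position because no gene annotation of hg19 was used. The one on chromosome 2 (chr2:54850616-54896846, plus strand) was 46.2 kb long with a median region width of 181 bp. Its median scores were 2810, 1797 and 2863 in MeRIP 1, 2 and 3. The GOLGA3 and ANKLE2 chain had a median width of 290 bp and median scores of 1298, 1658 and 1689. The one on chromosome 21 (chr21:47801609-47865682, plus strand), 64.1 kb long, had median scores of 1284, 1373 and 1402. The one on chromosome 14 (chr14:65233117-65266652, minus strand), 33.5 kb long, had 318, 260 and 367. The chromosome 21 chain was the nearest in length. In median score it was the nearest in MeRIP 1 and MeRIP 3, and the chromosome 2 chain was the nearest in MeRIP 2. The likeness is one of number of regions and says nothing of the genes.

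GOLGA2, the entry-side golgin that holds the vesicle tether USO1, had the simplest pattern. Its only region (chr9:131018108-131019560, 1453 bp) lay at the 3′ end of the window, 18.7 kb from the 5′ end of a 20.2 kb window. It scored 1430 in MeRIP 1, 1134 in MeRIP 2 and 1476 in MeRIP 3, with the same edges in all 3 lists. The highest score was 1.30 times the lowest. In the RefSeq gene table of GRCh38.p14 GOLGA2 overlaps SWI5, whose promoter is on the plus strand. Other members have overlapping entries there too: the noncoding RNA gene GOLGA4-AS1 and pseudogenes for GOLGA4, and a pseudogene each for GOLGA3 and ANKLE2. No peak on the opposite strand was listed in any of the 5 windows in any of the 3 lists. The sources used here do not say whether the libraries kept the strand of the RNA.

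GOLGB1, the largest golgin and one anchored in the membrane, had its signal concentrated in 2 neighbouring wide regions. Region 5 (chr3:121412588-121417776), 50.8 kb from the 5′ end, was 5189 bp wide, the widest region of the 5 genes. Region 6 (chr3:121409517-121411428) followed after 1159 bp and was 1912 bp wide. Both scored 3100 in every list and had the same edges in all 3. A width of 5000 bp or more was found in 0.74% of the regions of all 3 lists.

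All other GOLGB1 regions were weak. Region 1 (chr3:121467857-121468010, 154 bp), 592 bp from the 5′ end, scored 113 in MeRIP 1, 209 in MeRIP 2 and 315 in MeRIP 3. Region 4 (chr3:121435584-121435986, 403 bp) scored 271, 233 and 457. These 2 were found in every list, with MeRIP 3 the highest in both.

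The other 3 regions of GOLGB1 were not found in every list. Region 2 (chr3:121441109-121441225, 117 bp) scored 66.94 in MeRIP 1 and 66.52 in MeRIP 2. Region 3 (chr3:121437235-121437348, 114 bp) scored 133.65 in MeRIP 2 and 108.57 in MeRIP 3. Region 7 (chr3:121382574-121383461, 888 bp), at the 3′ end of the window, was listed in MeRIP 1 alone with a score of 120.79. None of these 3 exceeded a score of 133.65, whereas the region of GOLGA3 found in MeRIP 2 alone scored 2761.

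GOLGA4, an exit-side golgin that the small GTPase ARL1 brings to the membrane, had 4 regions in the longest window, 123.7 kb. The first began 38.8 kb from the 5′ end. Region 4 (chr3:37365079-37369316) was 4238 bp wide, scored 3100 in every list and had the same edges in all 3. A width of 4000 bp or more was found in 1.93% of the regions of all 3 lists in the series, and in 2 of the 27 here, this one and region 5 of GOLGB1.

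The other 3 regions of GOLGA4 were narrow and below the ceiling in every list that held them. Region 1 (chr3:37323449-37323763, 315 bp) scored 2566 in MeRIP 1, 472 in MeRIP 2 and 1454 in MeRIP 3, and its highest score was 5.44 times its lowest. Region 2 (chr3:37343676-37343823, 148 bp) scored 125.65, 74.25 and 61.76. Region 3 (chr3:37356911-37357089, 179 bp) scored 68.11 in MeRIP 1 and 61.50 in MeRIP 2 and was not listed in MeRIP 3. MeRIP 1 gave the highest score in each of these 3 regions.

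**Figure D3:**
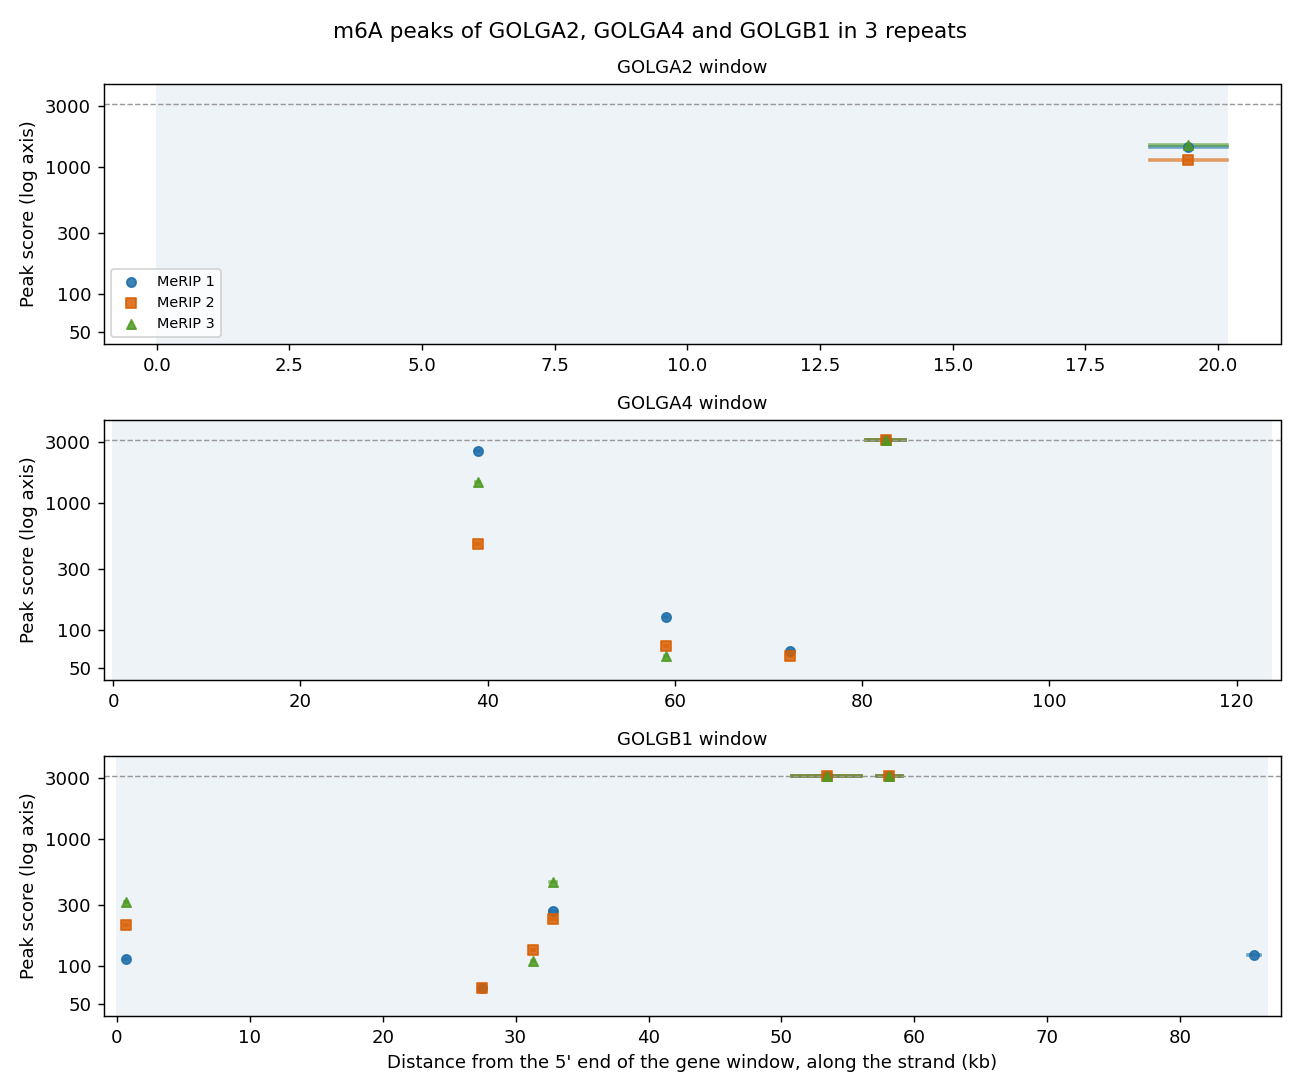
Score of each peak (log axis) against the distance from the 5′ end of the window along the strand, in kb, for GOLGA2, GOLGA4 and GOLGB1; points are peak centres by repeat, short lines their widths and the dashed line the ceiling of 3100. GOLGA4 and GOLGB1 each carry wide regions at the ceiling in all 3 repeats (4238 bp in GOLGA4, 5189 and 1912 bp in GOLGB1) beside narrow, mostly weaker ones.

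Taking the peaks of a gene together, the median score was 1282, 1391 and 1638 for GOLGA3 in MeRIP 1, 2 and 3, and 1430, 1134 and 1476 for the single region of GOLGA2. It was 1314, 1598 and 196 for ANKLE2, and 1346, 273 and 1454 for GOLGA4. GOLGB1 had 196, 221 and 457. As means over the lists this is 1437 ± 183 (SD, n = 3 lists) for GOLGA3, 1347 ± 186 for GOLGA2, 1036 ± 741 for ANKLE2, 1024 ± 653 for GOLGA4 and 291 ± 144 for GOLGB1. The values of GOLGA3, GOLGA2, ANKLE2 and GOLGA4 overlapped between lists, with the lowest value of ANKLE2 in MeRIP 3 and that of GOLGA4 in MeRIP 2. GOLGB1 lay below GOLGA3 and GOLGA2 with no overlap, but its values overlapped those of ANKLE2 and GOLGA4. Over regions of all 3 lists alone the means were 1710 ± 59.9 for GOLGB1, 1556 ± 574 for ANKLE2, 1497 ± 1048 for GOLGA4, 1441 ± 189 for GOLGA3 and 1347 ± 186 for GOLGA2, another order, so the order of the genes depends on which peaks enter. The median over all peaks of a list was 420, 422 and 443. It takes in peaks found in a single list, whereas GOLGA3 and ANKLE2 were selected for recurrent regions, so nothing is read from this difference.

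At the ceiling in all 3 lists were 8 of the 27 member regions: 4 of GOLGA3, 2 of GOLGB1, 1 each of ANKLE2 and GOLGA4, and none of GOLGA2. The same was true of 18.9% of the recurrent regions of the series. Of the 16 member regions that stayed below the ceiling in every list, 8 had a highest score of at most 2 times the lowest, and 52.4% of such regions of the series did. The median ratio of highest to lowest score was 1.99 for these 16 regions and 1.94 over the series.

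**Figure D4:**
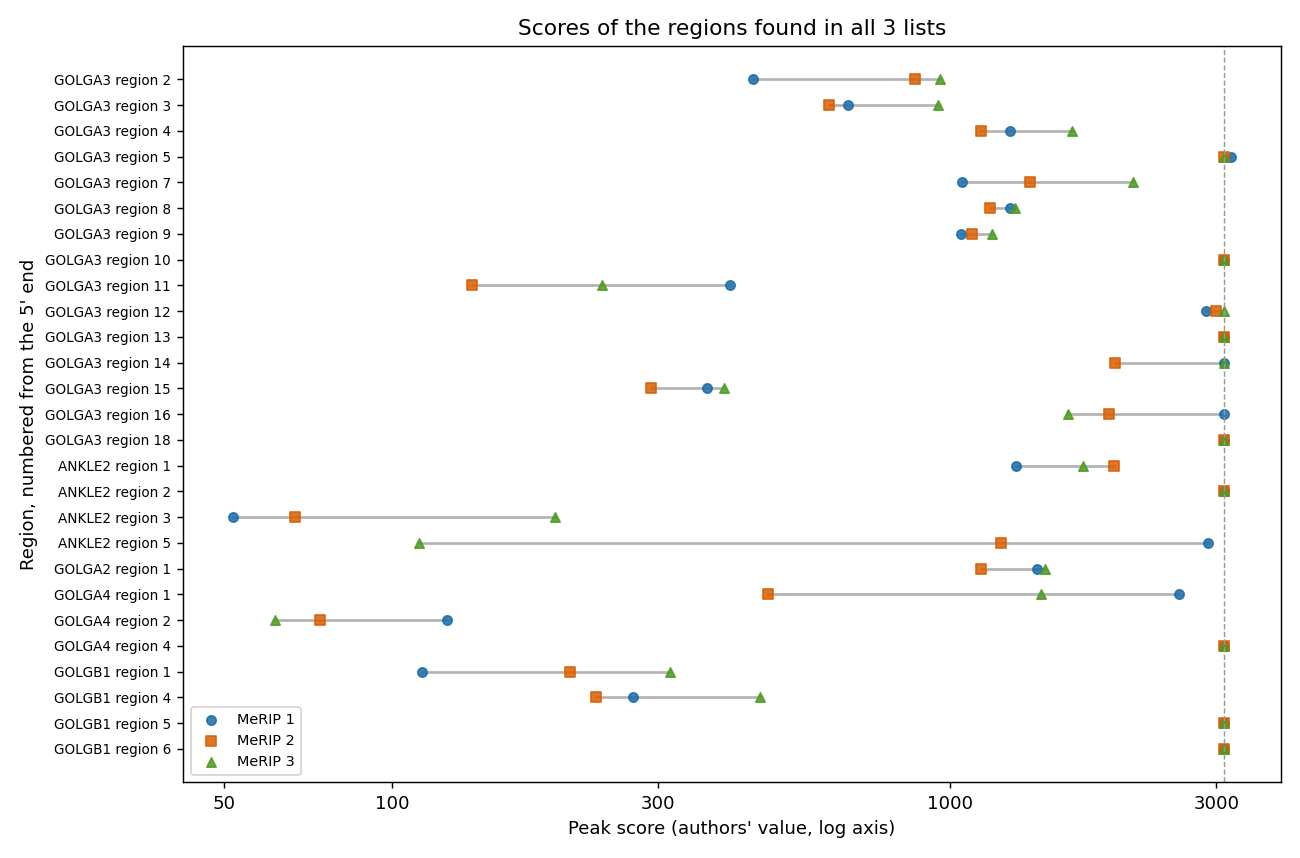
Score of each of the 27 regions found in all 3 lists (log axis), with a point for each repeat, a grey line from the lowest to the highest and a dashed line at the ceiling of 3100; regions are numbered from the 5′ end of their gene. ANKLE2 region 5 has the longest line, from 112 to 2899, followed by GOLGA4 region 1, from 472 to 2566.

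The order of scores was similar between repeats. Spearman's rho over the 15 GOLGA3 regions of all 3 lists was 0.93 for MeRIP 1 with MeRIP 2, 0.88 for MeRIP 1 with MeRIP 3 and 0.96 for MeRIP 2 with MeRIP 3. Over all 27 regions it was 0.93, 0.85 and 0.92. Wider regions of GOLGA3 tended to have higher scores, with a rho of 0.64 between width and mean log2 score, and over all 27 regions this rho was 0.51. These values describe regions that share a transcript and its coverage, with ties at the ceiling.

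The edges of the peaks were mostly the same to the base. Of the 27 regions found in all 3 lists, each with 1 peak per list, 24 had the same start and end in every list. In the series 72.7% of such regions did. The selection used the positions of these same peaks and regions of 1 gene are not independent, so nothing is read from this difference. The share by gene was 14 of 15 in GOLGA3, 2 of 4 in ANKLE2, 4 of 4 in GOLGB1, 3 of 3 in GOLGA4 and 1 of 1 in GOLGA2.

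The 3 regions whose edges differed were GOLGA3 region 18 and ANKLE2 regions 1 and 2. In GOLGA3 region 18 the upstream edge was the same and the downstream edge moved over 67 bp, with widths of 2260, 2234 and 2193 bp in MeRIP 1, 2 and 3. In ANKLE2 region 1 the upstream edge was again the same, and the downstream edge moved over 816 bp, with widths of 1566, 1038 and 1854 bp. ANKLE2 region 2 was of the other kind: its downstream edge was the same and its upstream edge moved over 398 bp, with widths of 655, 1053 and 786 bp. Of the 4119 regions of the series with 1 peak in each list and edges that differ, 74.6% had only the upstream edge in common and 17.2% only the downstream one.

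Peak names carry numbers that follow the order along the chromosome in every adjacent pair of a list, so a missing number is taken here as a numbered peak that is not listed. Over the whole series 22.0%, 26.6% and 26.7% as many peaks were listed as the highest number in MeRIP 1, 2 and 3. Between the first and the last GOLGA3 peak, 16 of 18 numbers were listed in MeRIP 1, 17 of 17 in MeRIP 2 and 16 of 16 in MeRIP 3. For ANKLE2 it was 5 of 6, 4 of 6 and 5 of 5. GOLGB1 had 6 of 13, 6 of 7 and 5 of 10, and GOLGA4 had 4 of 8, 4 of 7 and 3 of 7. Numbers not listed were thus few in GOLGA3 and more frequent in GOLGA4. The ends of each stretch are listed peaks by construction, which raises these shares, and what the unlisted peaks were was not analysed here.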

How the data were processed

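MeRIP-seq was run on 3 IP and input pairs of HEK293T cells with 150 bp paired-end reads, per the labels. Per the submitters' processing notes, cutadapt 1.9.3, HISAT2 2.0.4 and the build hg19 were used. Peak names carry the word MACS; the sources used here give neither its version and settings nor the rule for listing peaks. The score of each peak was deposited by the authors in 1 list per repeat, and peaks were called per repeat. Read depth is unknown from such lists, so no interval is given.

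Peaks were merged into regions, assigned to the gene windows and chained with Python 3.11.15, pandas 2.3.3, NumPy 2.4.6 and SciPy 1.17.1; figures used Matplotlib 3.10.9. Coordinates count from 1. The code was checked on simulated lists. The members, lists and alternatives were chosen with earlier results of these data known. Within a gene every region was described. No test was made: over 3 lists the smallest two-sided p of an exact sign test is 0.25. No hg19 genome or annotation was used, so sequences, exons and the planned lists of other Golgi tethers and ANKLE2 partners were not analysed here.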

Additional observations from a re-analysis of the deposited data

How the results depend on the processing

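No paired analysis was possible because a list holds a single score per peak for an IP and its input together. The number of member regions in all 3 lists (27) was unchanged with any overlap with the window, with 50% overlap of the shorter peak and with strand ignored, and was 20 when peaks under the median score of each list were dropped. Leaving out 1 repeat and counting regions of both remaining lists gave 28 to 29. That median filter lowered ANKLE2 from 4 regions to 2 and GOLGB1 from 4 to 2, since weak peaks leave. The chromosome 12 chain held 19 regions when joined within 20 kb, and 18 to 19 without 1 repeat. Joined within 5 kb it broke at the gap of 9221 bp between the genes. It also broke at the gap of 5183 bp between regions 2 and 3 of GOLGA3. The 14 regions then counted were all of GOLGA3, so a chain through both genes depends on the joining distance. Regions scoring 1000 or more in every list numbered 17, against 8 at the ceiling. The share of the series at 1000 or more was not computed, so the 17 shows only the effect of the threshold. Weighted by width, the mean median score was 3100 for GOLGA3, GOLGA4 and GOLGB1, because wide regions lie at the ceiling, and it was 1710 for GOLGB1 over regions of all 3 lists. The median score of ANKLE2 ran from 755 to 1456 without 1 repeat, an alternative added after seeing the data. Of 93 alternative values, 86 stayed within 1.5 times the count or 1 SD of the median score. Some of them could not have moved, so the 86 does not measure how stable the results are. With 3 lists, a mean without 1 repeat always lies within 1 SD of the full mean. No opposite-strand peak was listed in a window and no nearest outside peak overlapped one. Ignoring strand or taking any overlap with the window could therefore change little. The SDs of 741 for ANKLE2 and 653 for GOLGA4 also make that limit wide.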
